A study of Arabidopsis thaliana with 12 samples.

Results

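The 51 *Arabidopsis* genes described here encode TCP, TGA, GBF, C/S-group bZIP and BZR transcription factors. They were taken by locus code from these families, *TGA1* to *TGA7* of the TGA genes and the group S1 genes of group S, because the study linked the binding motifs of such factors to regions that lost accessibility. They make up 51 of the 27444 protein-coding genes on the nuclear chromosomes of TAIR10.1. There are 24 TCP, 7 TGA, 5 GBF (group G bZIP), 9 C/S bZIP and 6 BZR genes. Open chromatin was profiled with ATAC-seq, in which the transposase Tn5 inserts adapters into DNA that nucleosomes leave free, in nuclei sorted from mature seeds. The mutant *h3.3ko* lacks the histone variant H3.3, with *HTR4* and *HTR5* disrupted by CRISPR-Cas9 and *HTR8* by a T-DNA insertion. Its seeds were those without mCherry signal from plants heterozygous for a *pHTR5::HTR5* transgene, so the mother plant carried a functional H3.3 gene. The seeds it was set against were WT Columbia (Col), and seeds of both genotypes had been stored for 3 months, with 2 biological replicates per genotype among the 12 libraries of the series. What is used here are the positions of 3278 regions with decreased and 3436 regions with increased accessibility in *h3.3ko* relative to Col, as listed by the authors. These lists carry no value per library, so depth per library is unknown from them, no spread between replicates can be given, and the tissue could not be checked against marker genes.

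A transcription factor gene is itself read from chromatin, and the accessibility of its promoter and 3′ end can be followed like that of any other gene. TCP proteins are plant-specific regulators of growth with a basic helix-loop-helix-like domain, and their class I members act in germination and cell proliferation. TGA factors are bZIP proteins that bind TGACG elements and work with NPR1 in salicylic acid responses, and GBFs bind the G-box CACGTG of light- and abscisic acid-regulated genes. Group C and group S1 bZIP factors form heterodimers in energy starvation and in seed maturation, and BZR1, BES1 and the BEH proteins carry the brassinosteroid signal to the genome after the kinase BIN2 ceases to phosphorylate them.

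The sequences that follow are the stretches of decreased regions that hold the motif matches described further on. They are reference sequence of TAIR10.1 read 5′ to 3′ on the strand of the gene, and capitals mark exact matches, on either strand, to CACGTG (G-box), TGACG (TGA core), GGNCCCAC (TCP consensus), TGGGCC and TGGGCT (site II, another TCP-bound element) or CGTGCG (a BZR1 response element). Positions are counted from the transcription start site (TSS), the first base of the annotated gene, as 0. All are upstream of the gene except that of *TGA4*, which is intronic, and the last 14 bases of that of *BES1*, which are transcribed.
BZR1, chr1:28185200-28185252, from -304 to -252: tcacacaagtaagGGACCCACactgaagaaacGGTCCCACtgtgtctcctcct
BES1, chr1:6688424-6688476, from -39 to 13: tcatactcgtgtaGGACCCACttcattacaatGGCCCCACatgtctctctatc
BZR1, chr1:28185406-28185437, from -98 to -67: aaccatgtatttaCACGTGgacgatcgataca
BEH2, chr4:17334398-17334503, from -148 to -43: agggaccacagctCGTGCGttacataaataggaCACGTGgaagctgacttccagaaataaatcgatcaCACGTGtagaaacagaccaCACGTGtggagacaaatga
BEH3, chr4:10352048-10352079, from -338 to -307: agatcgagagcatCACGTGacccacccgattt
GBF1, chr4:17312526-17312586, from -98 to -38: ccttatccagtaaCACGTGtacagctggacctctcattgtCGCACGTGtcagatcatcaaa
GBF2, chr4:484553-484584, from -60 to -29: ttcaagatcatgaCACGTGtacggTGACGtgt
GBF3, chr2:18999599-18999630, from -581 to -550: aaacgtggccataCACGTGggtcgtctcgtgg
TCP19, chr5:21095910-21095963, from -72 to -19: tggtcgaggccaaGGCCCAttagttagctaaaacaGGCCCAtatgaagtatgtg
TGA4, chr5:3140617-3140690, from 3579 to 3652: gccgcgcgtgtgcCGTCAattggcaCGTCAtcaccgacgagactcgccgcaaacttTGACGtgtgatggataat
bZIP53, chr3:23093258-23093293, from -443 to -408: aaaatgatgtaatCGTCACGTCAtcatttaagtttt

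Regions of decreased accessibility were present at 15 of the 51 factor genes, 12 of which lay outside the TCP family. An overlap of 1 bp or more with the gene, or with the 1 kb before its TSS, was counted. The 15 genes were 29.4% of the members (95% Wilson interval over genes, 18.7 to 43.0%), against 14.7% of all protein-coding genes, 4043 of 27444. Of 855 other genes annotated as transcription factors, 19.9% had a decreased region, a share inside that interval. Regions of increased accessibility were present at 9 members (17.6%, 9.57 to 30.3%), against 16.0% of all protein-coding genes, 4388 of 27444, a share near that background. Regions of both kinds were found at *GBF1*, *GBF2*, *GBF3* and *TGA1*, which is 7.84% of the members (3.09 to 18.5%) against 3.35% of all protein-coding genes. The other 31 members had no listed region of either kind. With the gene body alone, 9 members kept a decreased region, against 10.5% of all protein-coding genes, and 1 (*GBF1*) had both kinds, which is below the 2.53% of all protein-coding genes. These intervals cover counting over genes only, and related genes are not independent draws, so the shares are given as descriptions with no test.

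**Figure D1:**
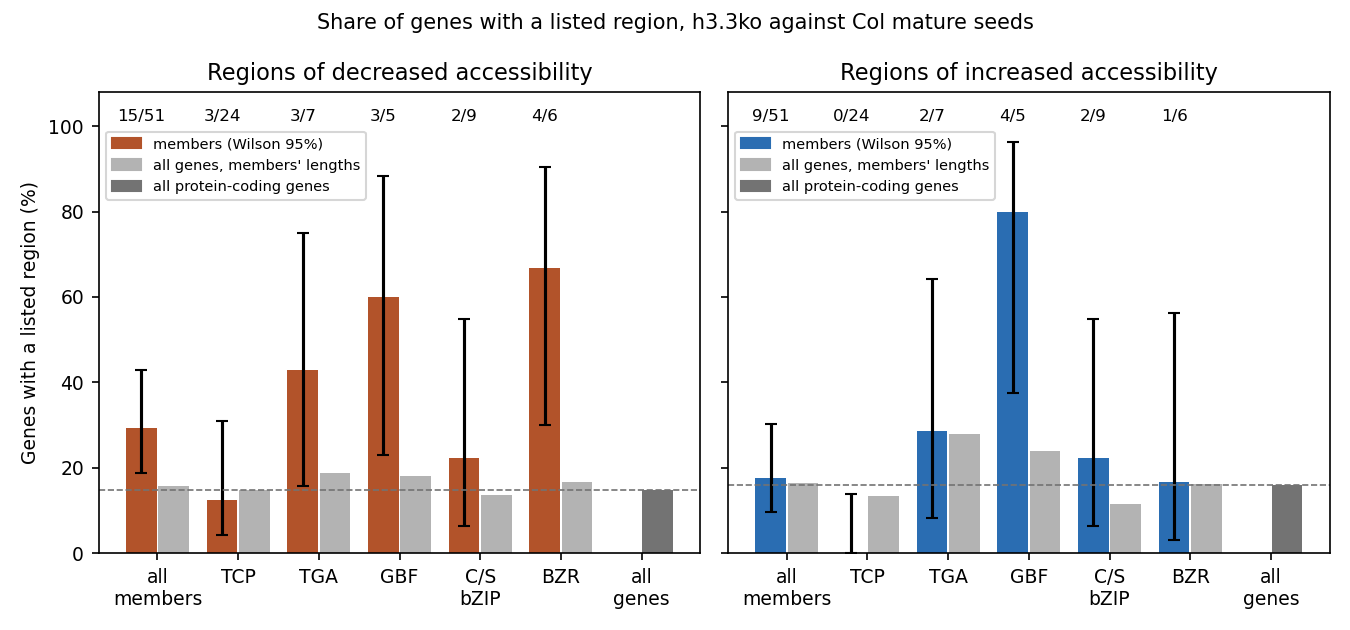
Percent of genes (vertical axis) with a listed region of decreased (left) or increased (right) accessibility in *h3.3ko*, for all members and each family as coloured bars with 95% Wilson intervals and the numbers of genes above, beside light grey bars for all protein-coding genes weighted to the same gene lengths and a dark bar and dashed line for all protein-coding genes. The bar for decreased regions is highest for BZR (4 of 6 genes) and that for increased regions for GBF (4 of 5 genes), and no TCP gene has an increased region.

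The BZR genes had the highest share of decreased regions of the 5 families, at 4 of 6 genes (66.7%, 30.0 to 90.3%). An increased region was listed at 1 of 6 (16.7%, 3.01 to 56.4%). In all protein-coding genes weighted to the lengths of BZR genes, decreased regions occurred at 16.7% and increased regions at 16.1%. *BZR1* (*AT1G75080*), the founding member and a repressor of brassinosteroid synthesis genes, had a decreased region of 1919 bp (chr1:28183639-28185557) that ran from 1865 bp upstream to 53 bp past the TSS. It was the widest at any member and also overlapped the neighbouring gene *AT1G75060* or the 1 kb upstream of it. The same region overlapped the tRNA gene *AT1G75070* or the 1 kb upstream of it. *BES1* (*AT1G19350*), the closest relative of *BZR1* with 88.7% identical residues, had the narrowest of the decreased regions at members, of 265 bp (chr1:6688320-6688584), with its midpoint 11 bp before the TSS. The decreased region of *BEH3* (*AT4G18890*, chr4:10352044-10352689, 646 bp) lay over the TSS as well, with 342 bp upstream and 304 bp in the 5′ UTR. That of *BEH2* (*AT4G36780*, chr4:17334343-17334714, 372 bp) was almost wholly upstream and reached 12 bp past the TSS. All 4 thus touched the first bases of their genes. *BEH4* (*AT1G78700*), the closest relative of *BEH3* with 70.8% identity, had no decreased region and instead an increased region of 1678 bp (chr1:29600450-29602127) over its 3′ part and past its transcription end site (TES), which was shared with the neighbouring gene *TBL42*. *BEH1* had no listed region.

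The group G genes *GBF1* (*AT4G36730*), *GBF2* and *GBF3* (*AT2G46270*) combined a decreased region before or over the TSS with an increased region near the 3′ end. *GBF1* had a decreased region of 860 bp (chr4:17312286-17313145), of which 657 bp were upstream and 203 bp in the 5′ UTR, and an increased region of 344 bp (chr4:17309815-17310158) with its midpoint 374 bp before the TES. This increased region also overlapped the 3′ neighbour *HVA22K*, whose TES was the nearer one. *GBF2* (*AT4G01120*) had a decreased region of 1188 bp (chr4:484540-485727) that nearly filled the 1218 bp between its start and the divergent gene *AT4G01130*, and an increased region of 862 bp (chr4:481727-482588) with its midpoint 588 bp before the TES. *GBF3*, an abscisic acid-responsive member, had a decreased region of 1738 bp (chr2:18998207-18999944) that ended 236 bp before the TSS and of which 765 bp lay within the 1 kb window. The same region overlapped the neighbouring gene *LRB1* or the 1 kb upstream of it. The increased region of *GBF3* was 196 bp wide (chr2:19002675-19002870), with 149 bp in coding exons and 47 bp in introns. Of the 2 remaining group G genes, *bZIP16* (*AT2G35530*) had only an increased region (chr2:14923843-14924350, 508 bp, midpoint 1260 bp before the TES), and *bZIP68*, its closest relative with 77.1% identity, had none. The family therefore counted 3 of 5 genes with a decreased region (60.0%, 23.1 to 88.2%) and 4 of 5 with an increased region (80.0%, 37.6 to 96.4%). Group G genes are long, with a median of 3152 bp against 2078 bp for all protein-coding genes, and in all genes weighted to their lengths 24.0% had an increased region and 18.1% a decreased one.

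Among the TGA genes, 3 of 7 had a decreased region (42.9%, 15.8 to 75.0%) and 2 of 7 an increased one (28.6%, 8.22 to 64.1%), and the positions differed from gene to gene. *TGA1* (*AT5G65210*), which with *TGA4* forms the pair whose products are redox-controlled partners of NPR1, had a decreased region of 732 bp (chr5:26056786-26057517) that ended 16 bp before the TSS and an increased region of 697 bp (chr5:26060127-26060823) with its midpoint 682 bp before the TES. *TGA4* (*AT5G10030*), with 86.0% identity to *TGA1*, had its decreased region of 1096 bp (chr5:3140386-3141481) inside the gene, 3336 bp from the TSS, with 972 bp in introns and 124 bp in a 5′ UTR exon. The start of another annotated transcript of *TGA4* lay 424 bp from the midpoint of that region, and so inside it. *TGA7* (*AT1G77920*) had a decreased region of 420 bp (chr1:29297009-29297428) centred 1025 bp upstream, of which 186 bp fell inside the window, the smallest overlap of any decreased region at a member. The same region overlapped the long non-coding RNA gene *AT1G09767* or the 1 kb upstream of it. *TGA5* (*AT5G06960*) had an increased region of 798 bp (chr5:2156959-2157756), with 319 bp in the 3′ UTR and 358 bp in coding exons. Its tandem neighbour *TGA2*, which ends 160 bp before it, and *TGA3* and *TGA6* had no region of either kind. In all protein-coding genes weighted to the lengths of TGA genes, decreased regions occurred at 18.7% and increased regions at 28.0%.

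Of the 9 C/S bZIP genes, 2 had a decreased region (22.2%, 6.32 to 54.7%) and 2 an increased one (22.2%), against 13.6% and 11.4% of all protein-coding genes weighted to their lengths. Decreased regions were listed at 2 of 5 group S1 genes and at 0 of 4 group C genes, and increased regions at 0 of 5 group S1 and 2 of 4 group C genes, a difference that was not tested. The group S1 genes are 907 to 1370 bp long with 1 or 2 coding exons. Group C genes are 1470 to 2644 bp long with 6 or 7, and the weighted shares were not split by group. *bZIP53* (*AT3G62420*), which activates seed maturation genes in dimers with group C partners, had a decreased region of 519 bp (chr3:23092865-23093383) that ended 15 bp before the TSS. *bZIP1* (*AT5G49450*), a regulator of the low-energy response, had one of 1051 bp (chr5:20050756-20051806) that ended 23 bp before the TSS. Together with the regions of *TGA1* and *GBF2*, which both ended 16 bp before it, these made 4 of the 15 decreased regions that stopped within 50 bp of the TSS without reaching it. In group C, *bZIP25* (*AT3G54620*), a partner of *bZIP53*, had an increased region of 316 bp (chr3:20217784-20218099) centred 87 bp before the TES, with 231 bp in the 3′ UTR. *bZIP9* (*AT5G24800*) had one of 1030 bp (chr5:8516141-8517170) centred 14 bp before the TES and shared with *AT5G24810*. The remaining members *bZIP10*, *bZIP63*, *bZIP11*, *bZIP44* and *bZIP2* had none.

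Few TCP genes had a listed region. In this family 3 of 24 genes had a decreased region (12.5%, 4.34 to 31.0%), near the 14.7% of all protein-coding genes, and 0 of 24 had an increased region (upper bound of the Wilson interval 13.8%), against 16.0% of all protein-coding genes. All 3 were class I genes, 3 of 13. *TCP7* (*AT5G23280*) had a decreased region of 564 bp (chr5:7842370-7842933) over its TSS, with 237 bp upstream and 327 bp in the 5′ UTR. *TCP19* (*AT5G51910*) had one of 1220 bp (chr5:21094897-21096116) from 225 bp upstream to 994 bp into the gene, which included 689 bp of coding sequence and the small gene *AT5G51915* annotated within it, and which reached the upstream window of *AT5G51900*. The decreased region of *TCP23* (*AT1G35560*, chr1:13115446-13116454, 1009 bp) was at the 3′ end instead, with its midpoint 126 bp before the TES, 356 bp in coding sequence and 273 bp in the 3′ UTR. It was the only decreased region at a member that reached the 3′ UTR. The 8 CIN genes, class II factors that limit growth of leaf margins, and the 3 CYC/TB1 genes, which include the branching repressor *BRC1* (*TCP18*), had no region of either kind.

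Most TCP genes have a single coding exon, and in the genome such genes, like short genes, had increased regions less often. A single coding exon was annotated for 19 of 24 TCP genes, against 4 of the other 27 members. Of the 6113 protein-coding genes with 1 coding exon, 8.34% had an increased region, against 18.2% of the 21331 genes with more. By gene length, increased regions occurred at 5.68%, 8.40%, 11.5%, 21.8% and 32.6% of genes in the 5 classes from the shortest to the longest, and decreased regions at 6.90%, 12.5%, 17.0%, 17.8% and 19.4%. Weighted to the lengths of TCP genes, 13.3% of all protein-coding genes had an increased region and 14.8% a decreased one. Decreased regions were listed at 12.0% of genes with 1 coding exon, against 15.5% of genes with more. The part of coding exons and of length in the counts of the TCP family was not tested. Without the TCP family, 12 of 27 members had a decreased region (44.4%, 27.6 to 62.7%) and 9 of 27 an increased one (33.3%, 18.6 to 52.2%). No share weighted to the lengths of these 27 genes was computed. Weighted to TGA, GBF, C/S bZIP and BZR lengths in turn, 28.0%, 24.0%, 11.4% and 16.1% of all protein-coding genes had an increased region. For decreased regions these shares were 18.7%, 18.1%, 13.6% and 16.7%.

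**Figure D2:**
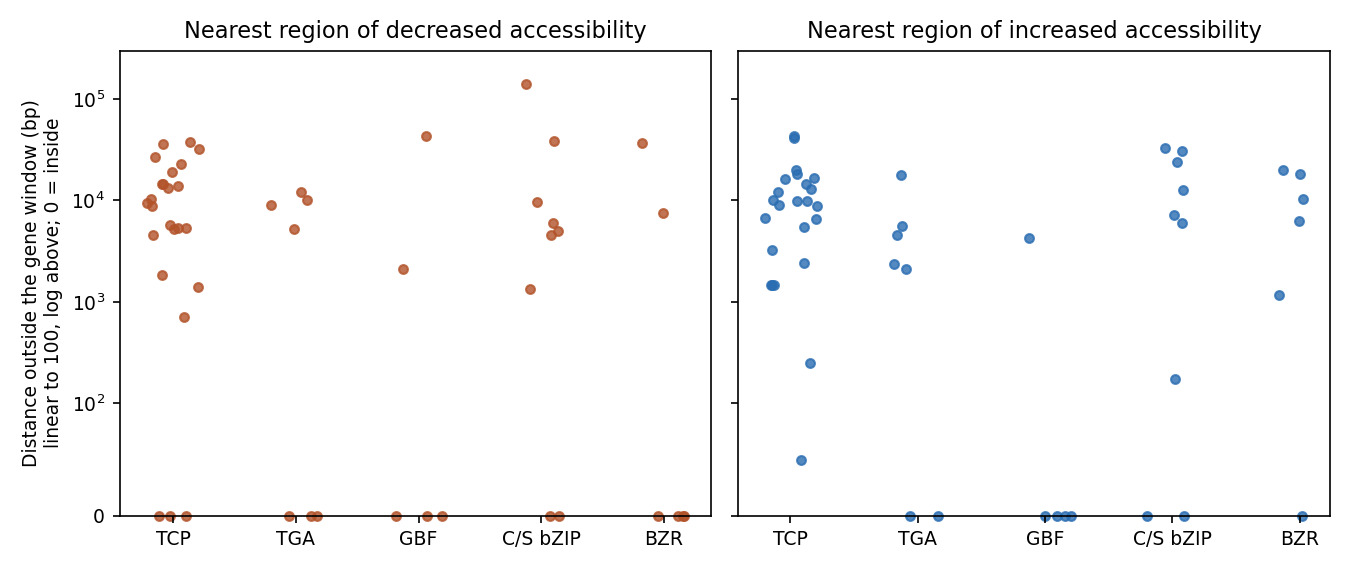
Distance in bp (vertical axis, linear up to 100 and logarithmic above) from the window of each of the 51 genes, the gene body plus 1 kb upstream, to the nearest listed region of decreased (left) or increased (right) accessibility, by family. Points at 0 are genes with a region inside the window, and among the 31 members with no region the distances to a decreased region run from 707 to 141202 bp.

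For the 31 members with no region, the median distance from the window to the nearest decreased region was 10193 bp, against 11635 bp for all 19933 protein-coding genes with no region. To the nearest increased region it was 8861 bp, against 11221 bp. The closest misses were an increased region 174 bp outside the window of *bZIP10*, an increased region 246 bp outside that of *TCP4* and a decreased region 707 bp outside that of *TCP13*. *TCP7*, counted for its decreased region, had an increased region 49 bp outside its window. *TCP2*, *TCP3*, *TCP4*, *TCP10* and *TCP24* are the TCP genes whose transcripts are cleaved by the microRNA miR319. The best complementary site to its mature sequence of 21 bases was coding in each, with 4 or 5 mismatches, and the listed region closest to any of these sites was an increased one 1078 bp away, at *TCP4*. No region was listed at *MIR319a*, *MIR319b* or *MIR319c*.

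**Figure D3:**
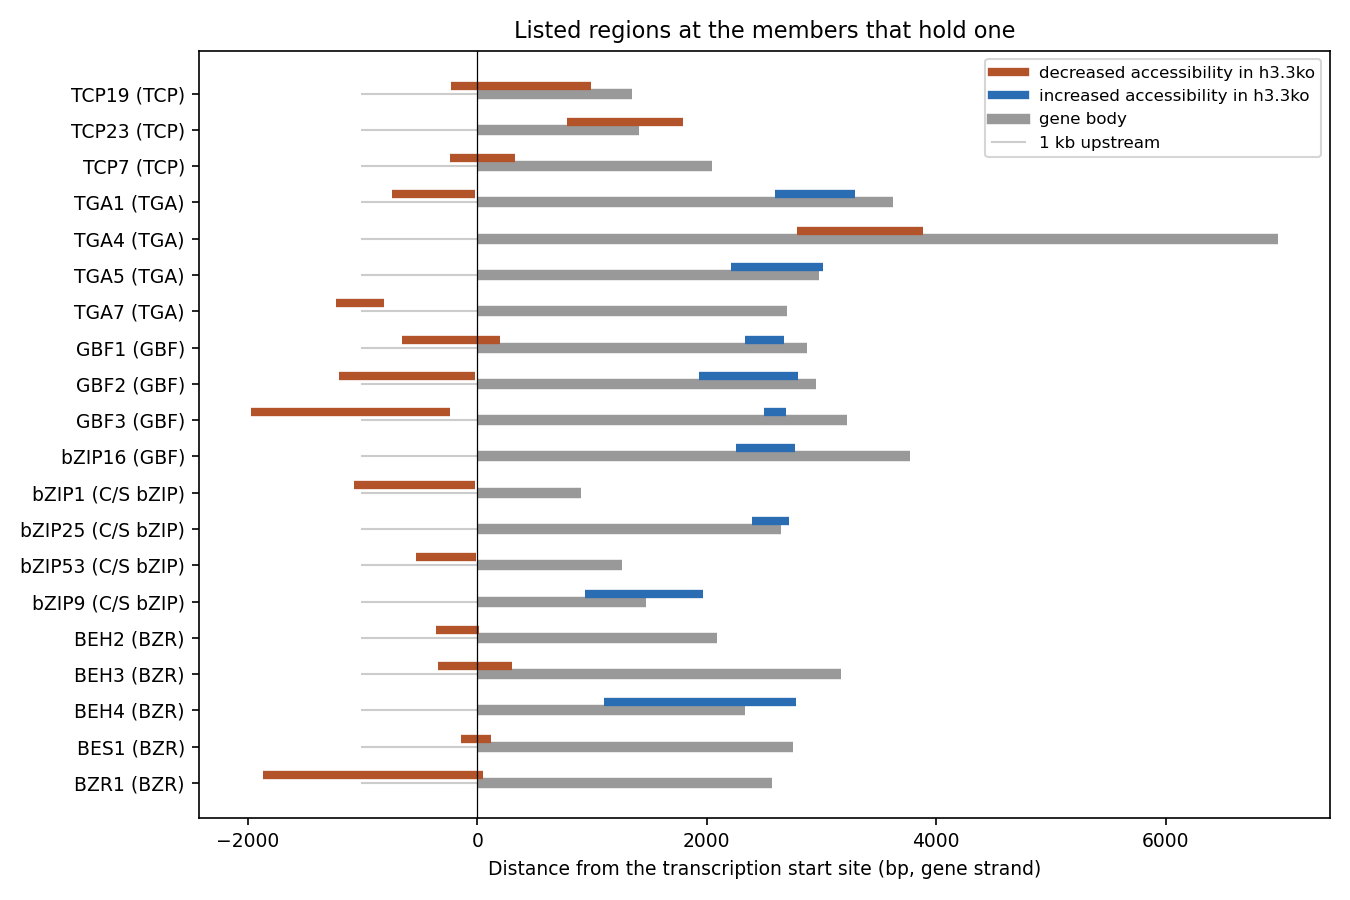
Position of every listed region at the 20 members that hold one, in bp from the transcription start site along the strand of the gene, with decreased regions in brown, increased regions in blue, the gene body in grey and the 1 kb upstream as a thin line. Decreased regions lie before or over the start of the gene except at *TGA4* and *TCP23*. The decreased region of *TGA4* covers the start of another annotated transcript. Increased regions lie in the 3′ part of the gene in each of the 9 genes that have one.

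Where the regions lay was compared with all protein-coding genes. The midpoints of the 15 decreased regions lay at a median of 227 bp before the TSS, between 1105 bp upstream and 3336 bp downstream, against a median of 123 bp before the TSS over the 4165 pairs of a protein-coding gene and a decreased region. They lay within 500 bp of the TSS in 8 of 15 cases (53.3%), against 68.2% of all pairs, and the region covered the TSS in 7 of 15 cases (46.7%), against 54.5%. The midpoints of the 9 increased regions lay at a median of 394 bp before the TES, against 550 bp in all pairs, and 8 of 9 (88.9%) were within 1000 bp of it, against 69.2%. At 4 of the 9 genes the region covered the TES (44.4%, against 38.7% of all pairs). Decreased regions at members were wide, with a median of 860 bp against 498 bp over all pairs, while increased regions had a median of 697 bp against 810 bp. A part of the regions was shared with other protein-coding genes, namely 4 of 15 decreased regions (at *TCP19*, *GBF2*, *GBF3* and *BZR1*) and 5 of 9 increased regions (at *TGA1*, *GBF1*, *GBF2*, *bZIP9* and *BEH4*), against 42.6% of decreased and 42.1% of increased regions that had a protein-coding gene.

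G-boxes occurred in the decreased regions of GBF and BZR genes and were not found in those of the other families. The element was present in 3 of 3 decreased regions at GBF genes, in 3 of 4 at BZR genes and in 0 of 8 at TCP, TGA and C/S bZIP genes. Over all members this made 6 of 15 (40.0%), against 33.9% of all 3278 decreased regions, 51.8% of the 413 that were at least as wide as the median of the members' (860 bp) and 7.68% of all promoters from 250 bp before to 50 bp after the TSS. The overall share lay between those of all and of wide decreased regions, and the split between families rests on 15 regions and was not tested. Within the central 200 bp of each region, 1 of 15 held a G-box, against 17.9% of all decreased regions. As printed above, *BEH2* had 3 G-boxes between 115 and 56 bp before the TSS, with CGTGCG at 135 bp before it, and *GBF1* had 2, the proximal one overlapping CGTGCG. *GBF2* and *BZR1* had 1 each, at 47 and 85 bp before the TSS, and that of *GBF3* lay 568 bp before it. *BEH3* had 1 upstream, at 325 bp before the TSS, and 1 in the 5′ UTR, and *BES1* had none. Regions with 3 or more G-boxes were 3.02% of all decreased regions. None of the 9 increased regions at members held a G-box, against 11.6% of all increased regions.

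*BZR1* and *BES1* shared another feature of sequence. Each had 2 matches to the TCP consensus GGNCCCAC in its decreased region, at 291 and 272 bp before the TSS of *BZR1* and at 26 and 7 bp before that of *BES1*, so that both pairs began 19 bp apart. Only 32 of the 3278 decreased regions (0.976%) held 2 or more such matches, and these were the only 2 of the 32 with neighbouring matches at that distance, a count made after the spacing had been seen. A single match was present at *GBF3*, which brought the members to 3 of 15 (20.0%) against 6.80% of all decreased regions, 12.1% of those of at least 860 bp and 1.32% of promoters. Within the central 200 bp of each region, 1 of 15 (6.67%) held a match, against 2.96% of all decreased regions. The decreased regions of the TCP genes themselves held no match to GGNCCCAC. That of *TCP19* had TGGGCC, read as GGCCCA on the strand of the gene, in 2 copies between 59 and 32 bp before the TSS and in 2 more within the gene, and that of *TCP7* had TGGGCT once.

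The core TGACG, bound by TGA factors, was found in 12 of 15 decreased regions at members (80.0%), against 53.6% of all decreased regions, 75.5% of those of at least 860 bp and 23.1% of promoters. In the central 200 bp of each region the direction turned, with 3 of 15 (20.0%) against 28.0% of all decreased regions. At the TGA genes, the intronic region of *TGA4* had 5 matches, 3 of them in the stretch printed above, *TGA1* had 1, and the region of *TGA7* had none of the 6 motifs. *bZIP53* had 4, of which 2 stand directly side by side in the stretch printed above. In increased regions TGACG was present in 5 of 9 (55.6%), against 47.4% of all increased regions. Of the site II letters, TGGGCC was present in 4 of 15 decreased regions at members (26.7%, against 38.4% of all) and TGGGCT in 5 of 15 (33.3%, against 37.0%). Among decreased regions of at least 860 bp these shares were 51.1% and 47.9%. In the central 200 bp each was found in 0 of 15 regions at members, against 19.4% (TGGGCC) and 18.3% (TGGGCT) of all decreased regions. CGTGCG was found in 2 of 15 (13.3%), at *GBF1* and *BEH2*, against 7.23% of all decreased regions and 13.1% of those of at least 860 bp. Of all promoters, 15.5% held TGGGCC, 14.2% held the other site II letters and 1.96% held the BZR1 element.

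**Figure D4:**
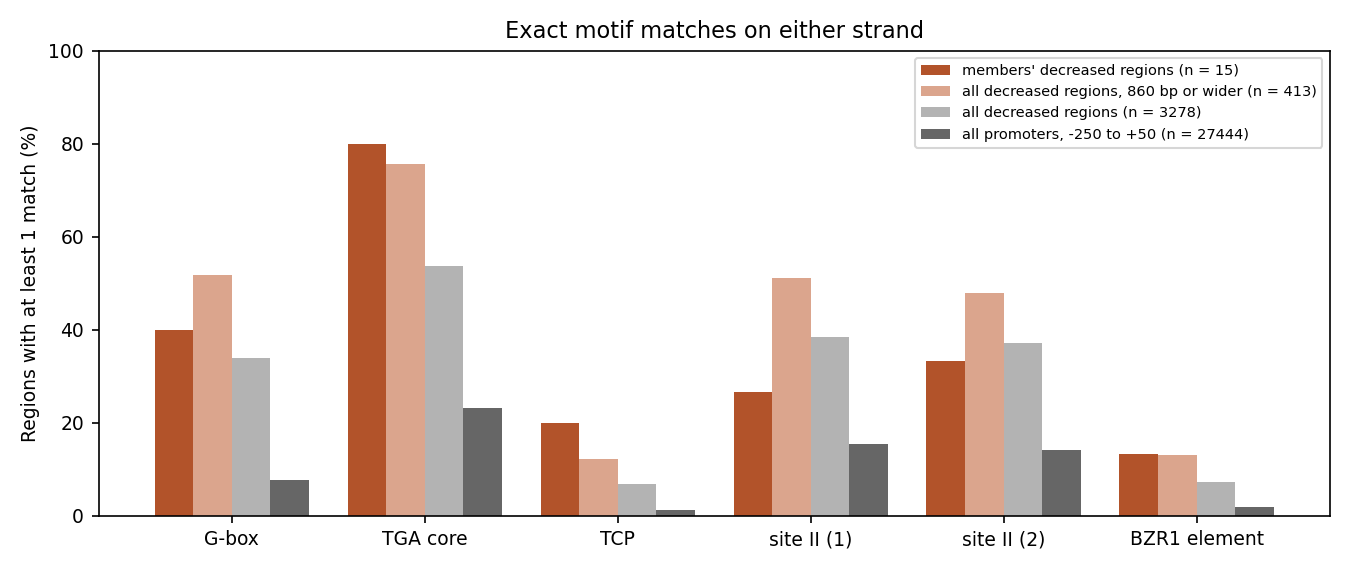
Percent of regions with at least 1 exact match (vertical axis) to CACGTG (G-box), TGACG (TGA core), GGNCCCAC (TCP), TGGGCC and TGGGCT (site II 1 and 2) and CGTGCG (BZR1 element), in the 15 decreased regions at members, in all decreased regions of at least 860 bp, in all decreased regions and in all promoters. Members are at 40.0% for the G-box and 80.0% for the TGA core, against 51.8% and 75.5% of decreased regions of at least 860 bp. That limit is the median width of the members' regions, the narrowest of which is 265 bp, so the 2 sets are not matched in width.

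Regions were also compared between close relatives, with no share for other pairs of genes to set beside the count. Among 17 pairs of members that were each other's closest relative by protein identity, 9 had the same kinds of region, which were none in 7 pairs and present in 2. The 2 were *BZR1* with *BES1*, both with a decreased region only, and *GBF2* with *GBF3*, with both kinds at 54.4% identity. The closest pair of all, *TGA2* and *TGA6* with 93.9% identity, had none. The other 8 pairs differed, for example *TCP7* from *AT5G08330* (*CHE*, also known as *TCP21*) at 70.7% identity, *TCP19* from *TCP9* at 50.9%, *TCP23* from *TCP22* at 52.5% and *TGA7* from *TGA3* at 75.0%, in each of which only the first had a decreased region.

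Partners and regulators of these factors were counted in the same way. The co-repressors TOPLESS and its relatives, which are recruited by BZR1 and by some TCP proteins, had decreased regions at 4 of 5 genes (80.0%, at *TPL*, *TPR1*, *TPR2* and *TPR3*) and increased regions at 4 of 5 (80.0%, at *TPL*, *TPR2*, *TPR3* and *TPR4*). The decreased regions were centred between 504 and 129 bp before the TSS. In brassinosteroid signalling, decreased regions were listed at 2 of 8 genes (25.0%), *BAK1*, the co-receptor, and *BIN2*, and increased regions at 3 of 8 (37.5%), these 2 and the receptor gene *BRI1*. The decreased region of *BAK1* was shared with *AT4G33440*, whose TSS was the nearer one. Of the increased regions at *BRI1*, that over the TES overlapped the gene by 48 bp and was shared with *PLS*, whose TES was nearer. Among the 12 group A and group H bZIP genes, which act in abscisic acid and light responses, 4 had decreased regions (33.3%: *ABI5*, *ABF3*, *HY5* and *HYH*) and 5 had increased regions (41.7%: *ABI5*, *ABF3*, *ABF4*, *AREB3* and *bZIP67*). The decreased region of *HY5* was shared with *OCP3* and that of *HYH* with *RBL14*. *ABI5*, an effector of abscisic acid in seeds, had a decreased region of 913 bp over the TSS and an increased region of 2803 bp over the TES. Of the 6 NPR and BOP genes, whose products bind TGA factors, *NPR3* had a decreased region centred 299 bp before the TSS and none had an increased one. The genes of the SnRK1 catalytic subunits *KIN10* and *KIN11*, kinases upstream of group C and S1 factors, had no region. These lists hold between 2 and 12 genes each, and further regions at them were shared with other genes. Their shares were not weighted to gene length and were not tested against the 14.7% and 16.0% of all protein-coding genes.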

How the data were processed

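ATAC-seq reads were trimmed by the authors with fastp version 0.20.1, mapped to TAIR10 with Bowtie2, and freed of organelle reads and of duplicates with Picard version 2.24.0. Peaks called with MACS2 in both replicates were merged across genotypes and scored with deepTools, and a region entered the lists at above 2-fold change with adjusted *P* under 0.05. The test and any correction for the Tn5 offset are not given in the sources used here. The deposited lists hold region positions, used here, and, per region, a log2 fold change (*h3.3ko* over Col) from the authors, which is their own comparison and was not used. Signal that did not pass these thresholds is therefore not seen, and depth acts only through what could be called. The imbibed seed and seedling libraries were left aside.

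Regions were overlapped with TAIR10.1 genes. As a check of coordinates, the midpoints of 68.6% of decreased regions fell at most 500 bp from a TSS, against 18.3% and 18.0% after shifts of 1000 bp. The TSS and TES are the outer ends of the annotated gene. Motifs were counted as exact matches on both strands, a palindrome once. Proteins were translated from the longest annotated coding sequence and aligned globally with BLOSUM62, and identity is given as a percent of the shorter protein. The functions were tested on simulated regions. Every member with a region is named with all its regions, other genes where they share one or belong to the lists of partners. Members and lists were chosen with earlier results of these data known. The alternatives were other windows, overlaps and widths, the nearest gene only, other backgrounds, and the central 200 bp for motifs. Python 3.11.15, statsmodels 0.14.6, Biopython 1.88 and matplotlib 3.10.9 were used.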

Additional observations from a re-analysis of the deposited data

How the results depend on the processing

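The 14 counts of members were recomputed under 6 alternatives, and 79 of the 84 values stayed within 1.5 times the count given. The 5 others all came from the gene body alone, without the 1 kb upstream, which by construction drops regions that end before the TSS. It left 9 members with a decreased region (background 10.5% of protein-coding genes), 1 with both kinds (*GBF1*), 1 TGA gene, 1 GBF gene and 0 C/S bZIP genes with a decreased region, while the 4 BZR and 3 TCP genes stayed. Over the other alternatives 13 to 16 members had a decreased region and 8 or 9 an increased one. The shares of all protein-coding genes moved as well. They ran from 10.4% (each region given to 1 gene) to 17.2% (2 kb upstream) for decreased regions. For increased regions they ran from 11.3% to 17.9% under the same 2 settings. With each region given to a single gene, *TCP19* lost its decreased and *GBF1* its increased region. Of the other genes annotated as transcription factors, 16.5% had an increased region. The counts of motifs were not among the 84 values. In the central 200 bp they fell for every motif in the members' decreased regions. A count cannot rise there, because only a part of each region is searched. The G-box went from 6 to 1 of 15 regions and TGACG from 12 to 3 of 15. Over all decreased regions the share with a G-box went from 33.9% to 17.9% and that with TGACG from 53.6% to 28.0%. No paired analysis was possible because the lists hold no value per library, and for the same reason no replicate could be left out.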
